A study of Homo sapiens with 16 samples.

Results

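The EGF receptor system was followed on the arrays through 9 genes, chosen by name: the receptors EGFR, ERBB2 and ERBB3, the ligands AREG, EREG, HBEGF, TGFA and BTC, and the receptor inhibitor ERRFI1. They are 9 of 30982 gene names on the array and are represented by 16 of its 41000 probes, and all 16 were tested. The genes were chosen with earlier results of these data known. Gene expression was measured in undifferentiated Caco-2 cells, a human colorectal carcinoma line that serves as a model of the intestinal epithelium. The 4 conditions, with 4 arrays each, were untreated cells (MED-CTL), gliadin digested with pepsin and trypsin (PT-G), the same digestion without any substrate (PT) and a synthetic gliadin peptide at 150 µg/ml (p31-43). Stimulation lasted 6 h. All cells, MED-CTL included, were seeded in medium with little serum and were detached with trypsin before RNA extraction, and the replicates came from independent experiments.

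EGF receptors are tyrosine kinases at the surface of epithelial cells. Their ligands are made as membrane-bound precursors, are released by metalloproteases, and act on the producing cell and its neighbours, where receptor activation drives the Ras and MAP kinase cascade. Transcripts of several of the ligands, and of the inhibitor ERRFI1, themselves rise in response to this cascade. Receptor activity itself was not measured here. An EGF-like action has been proposed for p31-43, and the comparison of the peptide with untreated cells addresses it at the level of these transcripts.

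Median spot intensity lay between 153 and 410 on the 16 arrays, over local backgrounds of 48 to 65, and between 27660 and 33947 spots per array were well above background. The arrays fell into 4 runs, each with 1 array of every condition, as given by the deposited files. MED-CTL replicates 1 and 2 were in runs 2 and 1, and every other array was in the run of its replicate number. All 10 epithelial markers on the array, among them the brush-border protein VIL1 and the keratins KRT8, KRT18 and KRT19, were above background on all 16 arrays, with a summed intensity of 867802 to 1085273. Of the markers of other cell types, the leukocyte gene PTPRC, the fibroblast gene COL1A2 and the endothelial gene CDH5 were above background on none. However, 3 of 5 leukocyte, 4 of 5 fibroblast and 2 of 4 endothelial markers were above background on all 16 arrays. The summed intensity of the leukocyte list was 1426 to 2904, that of the fibroblast list 1894 to 4549 and that of the endothelial list 464 to 756. The ranges of the 4 conditions overlapped for each of these lists. Bulk RNA cannot separate a change per cell from a change in the share of cells.

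Transcripts of HBEGF and ERRFI1 were about 2-fold higher in PT-G and PT treated cells than in MED-CTL, and AREG was about 1.6-fold and 1.5-fold higher without passing the correction. None of the 9 genes passed the test for p31-43. The receptors EGFR, ERBB2 and ERBB3 did not pass the correction in any comparison of the model without a block. After Benjamini-Hochberg adjustment in limma, 3 member probes of 2 genes had an adjusted p under 0.05 between PT-G and MED-CTL, against 0.944% of all probes tested (0.593% higher). Between PT and MED-CTL there were 2 probes of 2 genes, against 0.82% of all probes (0.437% higher), and between p31-43 and MED-CTL 0, against 0%. All the called probes were higher after the treatment. At the nominal p under 0.01 of the study's methods, 5 probes were higher with PT-G (1.91% of all probes were), 5 with PT (1.8%) and 0 with p31-43 (0.144%), and none was lower. No member probe had a nominal p under 0.05 for p31-43, against 2.15% of all probes. The median log2 change over the 16 probes was −0.01 for PT-G, 0.07 for PT and −0.05 for p31-43, beside −0.01, −0.01 and −0.00107 over all probes. The groups did not overlap for 5 probes with PT-G and 5 with PT, all of them higher, and for 0 with p31-43, where 2.01%, 2.36% and 0.515% of all probes were higher without overlap. PT-G, PT and p31-43 were compared with the same MED-CTL arrays, so these comparisons are not independent of each other.

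**Figure D1:**
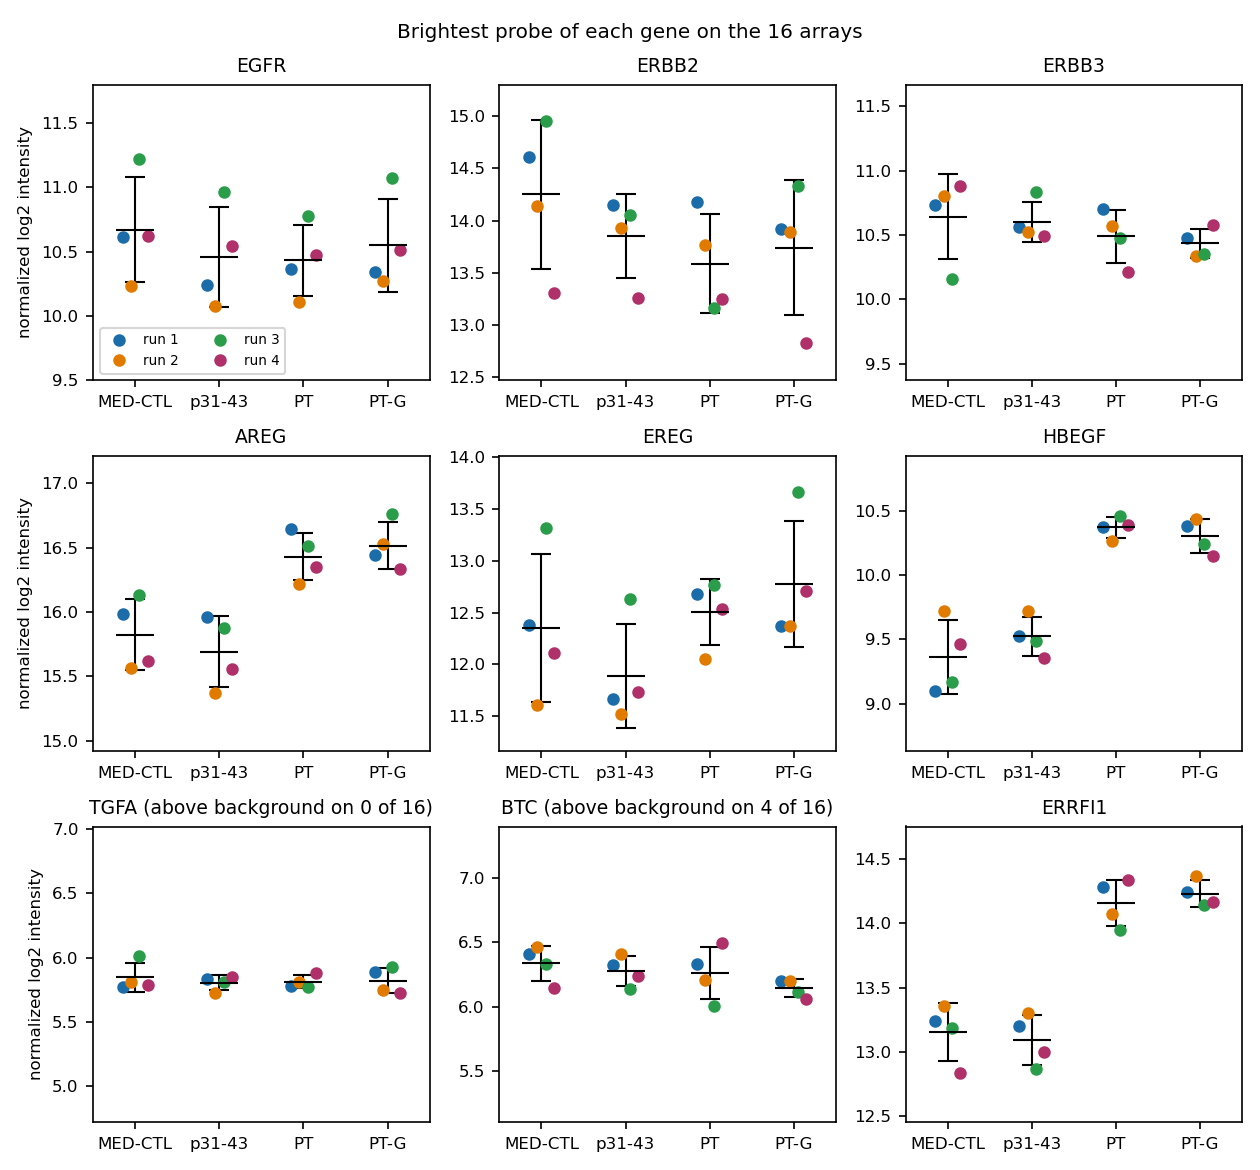
Normalized log2 intensity (y axis) of the brightest probe of each of the 9 genes in the 4 conditions (x axis), 1 point per array coloured by run, with the mean and SD (n = 4) in black. The PT and PT-G points of AREG, HBEGF and ERRFI1 lie above all MED-CTL and p31-43 points, and those of the other genes overlap.

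The ligand precursor HBEGF, a heparin-binding activator of EGFR, was measured by 2 probes. On its brighter probe, A_24_P140608, the normalized log2 intensity was 9.72, 9.10, 9.17 and 9.46 in MED-CTL replicates 1 to 4. It was 9.53, 9.72, 9.48 and 9.36 with p31-43, 10.37, 10.26, 10.46 and 10.39 with PT, and 10.38, 10.44, 10.24 and 10.15 with PT-G. The lowest value with either digest was thus above the highest value without, and the p31-43 values overlapped with those of MED-CTL. The mean was 9.36 ± 0.29 for untreated cells and 9.52 ± 0.15 for the peptide, against 10.37 ± 0.08 (PT) and 10.30 ± 0.13 (PT-G; SD, n = 4). HBEGF rose 2.01-fold with PT (log2 change 1.01, SE 0.13, limma adjusted p = 0.00207) and 1.92-fold with PT-G (0.94, SE 0.13, adjusted p = 0.00267). The second probe, A_23_P213944, differed by 1.16 with PT and 0.99 with PT-G on the log2 scale, with limma adjusted p-values of 0.0865 and 0.166. MED-CTL varied between 7.54 and 8.94 on that probe. Replicate numbers paired the PT-G and MED-CTL arrays, although MED-CTL replicates 1 and 2 were in runs 2 and 1. With the replicate number as a block the second probe passed for PT-G as well (limma adjusted p = 0.00971).

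ERRFI1, also known as MIG6, encodes an intracellular protein that binds the kinase domain of EGF receptors and shuts off their signal. Its brighter probe, A_23_P46470, gave 13.36, 13.24, 13.19 and 12.83 in the MED-CTL replicates and 13.20, 13.30, 12.87 and 13.00 with p31-43. With PT it gave 14.28, 14.07, 13.95 and 14.33, and with PT-G 14.24, 14.37, 14.14 and 14.16. The 8 digest-treated arrays did not overlap with the other 8. ERRFI1 rose 2.01-fold with PT (log2 change 1.01, SE 0.13, limma adjusted p = 0.00239) and 2.11-fold with PT-G (1.08, SE 0.13, adjusted p = 0.00136). On the dimmer probe, A_24_P11384, the change with PT-G was 0.92 (SE 0.15, limma adjusted p = 0.010), whereas that with PT was 0.57 (SE 0.15) and did not pass the correction (adjusted p = 0.118). The groups did not overlap on that probe either, with 7.08 to 7.65 in MED-CTL, 7.75 to 8.01 with PT and 7.97 to 8.63 with PT-G.

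AREG encodes amphiregulin, an EGFR ligand of epithelial cells. Its single probe gave 15.56, 15.98, 16.13 and 15.62 in MED-CTL, and 15.96, 15.37, 15.88 and 15.56 with p31-43. The PT arrays gave 16.64, 16.22, 16.51 and 16.35 and the PT-G arrays 16.44, 16.53, 16.76 and 16.33. Here too every digest-treated array was above every other array. The difference was 0.69 with PT-G (SE 0.16, 1.61-fold) and 0.61 with PT (SE 0.16, 1.52-fold) on the log2 scale. Neither passed the correction in limma (adjusted p = 0.0654 and 0.120). With the replicate number as a block AREG passed for PT-G (limma adjusted p = 0.0155), and with the run as a block it passed for PT-G (0.00169) and PT (0.00363).

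The sequences before the transcription start of AREG, HBEGF and ERRFI1 are shown because the PT and PT-G arrays did not overlap with the others on the brightest probe of each of these genes. Promoter windows were taken from RefSeq (GRCh38.p14), which held entries for 8 of the 9 genes. The 250 bases before the start, read 5′ to 3′ on the strand of the gene, are given in lower case for AREG (chr4:74444886-74445135, plus strand), HBEGF (chr5:140346604-140346853, minus strand) and ERRFI1 (chr1:8026310-8026559, minus strand), with motif matches in capitals.
AREG: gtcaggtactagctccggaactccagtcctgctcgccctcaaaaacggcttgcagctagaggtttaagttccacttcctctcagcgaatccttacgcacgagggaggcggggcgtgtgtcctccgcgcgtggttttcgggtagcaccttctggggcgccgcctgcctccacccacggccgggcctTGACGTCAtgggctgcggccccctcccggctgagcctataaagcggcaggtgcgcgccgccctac
HBEGF: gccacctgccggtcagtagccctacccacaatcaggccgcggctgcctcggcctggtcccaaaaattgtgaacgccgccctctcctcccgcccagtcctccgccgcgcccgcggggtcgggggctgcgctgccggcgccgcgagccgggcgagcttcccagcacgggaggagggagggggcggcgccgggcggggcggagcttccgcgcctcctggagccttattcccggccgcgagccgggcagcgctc
ERRFI1: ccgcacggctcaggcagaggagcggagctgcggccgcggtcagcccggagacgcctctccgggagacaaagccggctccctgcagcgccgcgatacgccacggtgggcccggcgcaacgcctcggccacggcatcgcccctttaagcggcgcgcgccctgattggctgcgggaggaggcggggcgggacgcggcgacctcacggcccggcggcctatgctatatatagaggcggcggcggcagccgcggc
Motifs of factors that act downstream of receptor kinases were searched on both strands of each window. They were the AP-1 site TGANTCA, the cyclic AMP response element TGACGTCA, the EGR site GCGNGGGCG and the CArG box of SRF. The AREG window held the cyclic AMP response element, from base 65 to base 58 before the start, which 1.65% of all 35116 windows of this length held. These letters did not overlap with a match of another motif. The HBEGF and ERRFI1 windows held none of the 4 motifs, and over all windows the AP-1 site was found in 6.57%, the EGR site in 8.41% and the CArG box in 1.16%. Among the receptors, which were not called in the model without a block, 1 EGFR window (chr7:55018767-55019016) held none of the 4 motifs. Another EGFR window (chr7:55109589-55109838) held 2 AP-1 sites, and the ERBB2 window held 1. The GC content was 65.2% for AREG, 76.4% for HBEGF and 75.2% for ERRFI1.

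EREG encodes epiregulin, a ligand of EGFR and ERBB4. Its brighter probe, A_23_P41344, was at 11.61, 12.38, 13.32 and 12.11 in MED-CTL and 11.67, 11.52, 12.63 and 11.73 after the peptide. PT gave 12.68, 12.05, 12.76 and 12.53, and PT-G 12.37, 12.37, 13.66 and 12.71. All conditions overlapped and replicate 3 was the highest in each. The differences from MED-CTL were 0.42 for PT-G, 0.15 for PT and −0.47 for p31-43 (SE 0.37 each), with limma adjusted p-values of 0.994, 0.948 and 1.00. The dimmer EREG probe differed by 0.42 with PT-G and 0.49 with PT (SE 0.21 each, limma adjusted p = 0.698 and 0.496). On this probe the PT-G arrays (8.60 to 9.11) did not overlap with MED-CTL (8.19 to 8.56), while PT (8.41 to 9.44) did. Within runs it was higher than MED-CTL in 4 of 4 with PT-G and 3 of 4 with PT. The brighter probe was higher in 3 of 4 with each digest.

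TGFA and BTC, the transcripts of transforming growth factor alpha and betacellulin, were at the limit of the array. The TGFA probe was not well above background on any array and read 5.72 to 6.02. Of the BTC probes, A_32_P865613 was not well above background on any array. The brighter one, A_23_P135722, was marked as well above background on the 4 MED-CTL arrays and on none of the other 12, although its intensities overlapped, with 6.14 to 6.46 in MED-CTL and 6.01 to 6.49 in the others. Its mean was 6.34 in MED-CTL, 6.15 with PT-G, 6.26 with PT and 6.28 with p31-43, and the differences did not pass the correction (limma adjusted p = 0.742, 0.890 and 1.00).

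The receptors had no probe with an adjusted p under 0.05 in the model without a block. EGFR, the receptor that binds all 5 ligands, had a mean of 10.67 ± 0.41 in untreated cells, 10.46 ± 0.39 after the peptide, 10.43 ± 0.28 after PT and 10.55 ± 0.36 after PT-G (SD, n = 4). The largest of the 3 differences from MED-CTL was −0.24 (SE 0.24, limma adjusted p = 0.855), with PT. ERBB2, the partner receptor without a ligand of its own, varied widely between replicates. On its brighter probe the MED-CTL arrays ranged from 13.31 to 14.95, and the differences were −0.66 with PT, −0.51 with PT-G and −0.40 with p31-43 (SE 0.38 each, limma adjusted p = 0.697, 0.942 and 1.00). Blocking on the slide gave the PT-G difference of −0.51 a limma adjusted p of 0.0239. ERBB3, which binds neuregulins and signals through its partners, differed from MED-CTL by at most 0.21 in size on any of its 3 probes. Its brightest probe was at 10.64 ± 0.33 in MED-CTL and 10.43 ± 0.11 with PT-G (SD, n = 4).

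**Figure D2:**
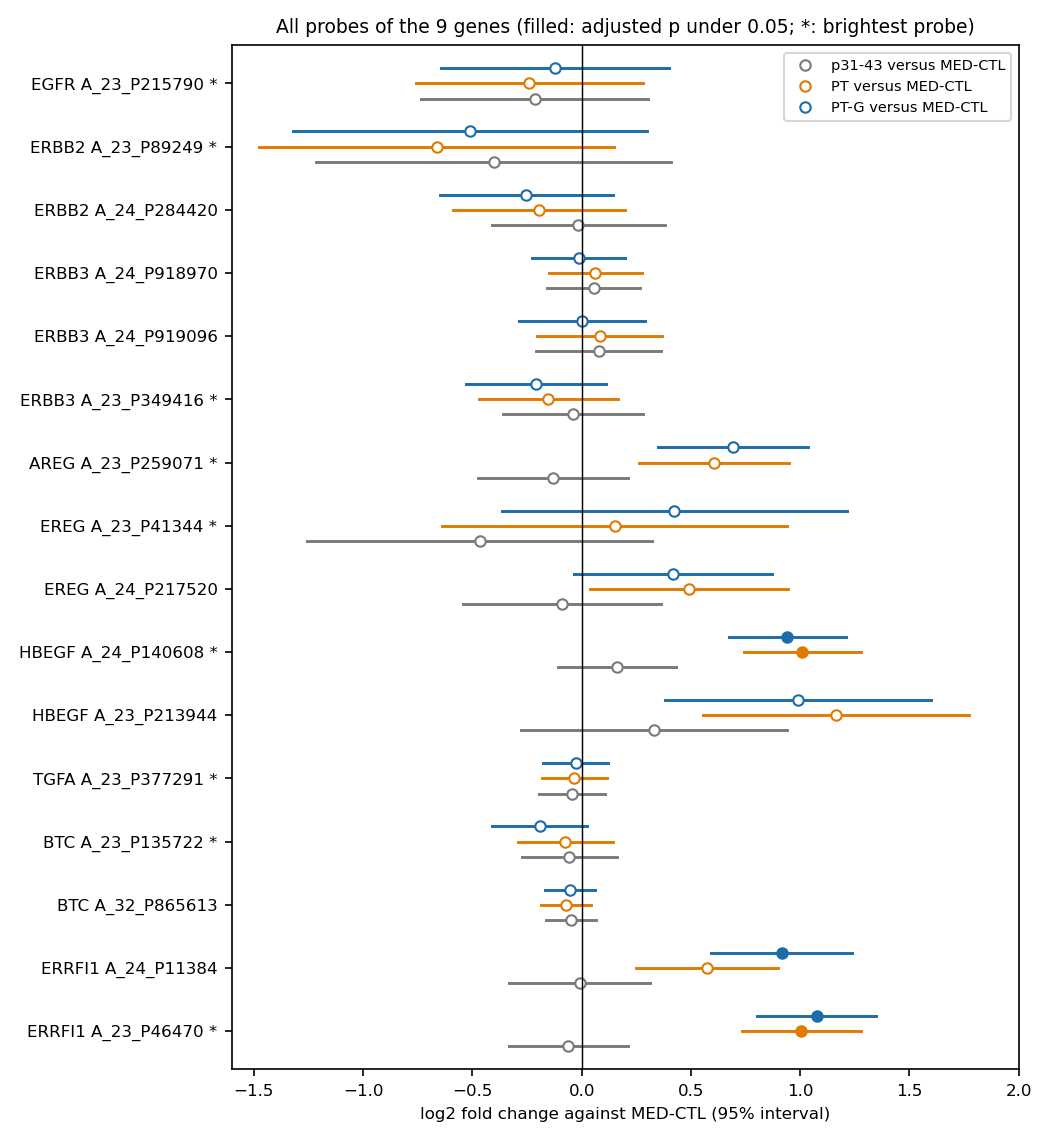
Log2 fold change against MED-CTL with its 95% interval (x axis) for every probe of the 9 genes (y axis), from receptors at the top to ERRFI1 at the bottom, for p31-43 (grey), PT (orange) and PT-G (blue). Filled points have an adjusted p under 0.05 (3 for PT-G, 2 for PT, 0 for p31-43), and every p31-43 interval includes 0.

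For p31-43 the intervals also limit the changes that these arrays could have missed. Over the 13 probes of the 7 genes that were detected on all arrays, the log2 change lay between −0.47 and 0.33. The upper end of the 95% interval was below 1 for each of the 13, that is, below a 2-fold rise. The smallest nominal p in limma was 0.217. The lower end reached −1.26 on the log2 scale, so falls beyond 2-fold were not limited for every probe. On the brighter ERBB2 probe the interval was 0.431-fold to 1.33-fold. For HBEGF the interval was 0.929-fold to 1.35-fold on the brighter probe and 0.824-fold to 1.92-fold on the other. It was 0.794-fold to 1.16-fold for the brighter ERRFI1 probe, 0.720-fold to 1.16-fold for AREG and 0.419-fold to 1.25-fold for the brighter EREG probe. The intervals cover the spread between these arrays at 6 h and at this dose only.

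The digests were then compared directly with the peptide. HBEGF (A_24_P140608) was 1.72-fold higher with PT-G than with p31-43 (limma adjusted p = 0.00775) and 1.80-fold higher with PT (0.00510). ERRFI1 (A_23_P46470) was 2.20-fold higher with PT-G (limma adjusted p = 0.000699) and 2.10-fold higher with PT (0.00157). AREG was 1.77-fold higher with PT-G (limma adjusted p = 0.0230), whereas the 1.67-fold difference with PT just missed the threshold (0.0504). Between PT-G and p31-43, 4 member probes of 3 genes passed, against 1.16% of all probes (0.683% higher), and between PT and p31-43 2 probes of 2 genes, against 0.769% (0.427% higher). All were higher with the digest. These shares of all probes are those of the model without a block and cannot be set beside the blocked count that follows. Replicate numbers paired both pairs of conditions. With the replicate number as a block 5 member probes passed between PT and p31-43, AREG among them (limma adjusted p = 0.0123), and the brighter EREG probe was called 0.89 higher with PT-G than with p31-43 on the log2 scale (adjusted p = 0.0322). For AREG the call against p31-43 was lost without PT-G replicate 2 (adjusted p = 0.0705), PT-G replicate 3 (0.0685), p31-43 replicate 2 (0.0651) or p31-43 replicate 4 (0.0800), and in a fit of only the 2 groups (0.0945).

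PT-G and PT differ by the gliadin. No member probe passed between them, against 0% of all probes, and none had a nominal p under 0.01 (0.0903% of all probes), while 1 probe had a nominal p under 0.05 (0.781% of all probes). The difference was −0.07 for HBEGF (95% interval −0.34 to 0.20), 0.07 for ERRFI1 (−0.20 to 0.34) and 0.08 for AREG (−0.26 to 0.43) on the log2 scale, for their brightest probes. The probe under 0.05 was the dimmer ERRFI1 probe, 0.34 higher with PT-G (SE 0.15, limma adjusted p = 1.00).

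Each run held 1 array of each condition, so the differences could also be read within runs. Within runs 1 to 4, HBEGF was higher with PT than in MED-CTL by 1.27, 0.54, 1.29 and 0.93 on the log2 scale, and with PT-G by 1.28, 0.72, 1.08 and 0.69. ERRFI1 was higher by 1.05, 0.71, 0.76 and 1.5 with PT, and by 1.00, 1.01, 0.95 and 1.33 with PT-G. For AREG the differences were 0.66, 0.66, 0.38 and 0.73 with PT and 0.46, 0.96, 0.63 and 0.71 with PT-G. These 3 ligand and inhibitor transcripts were therefore higher in 4 of 4 runs with both digests. With p31-43, AREG differed by −0.02, −0.19, −0.25 and −0.06, ERRFI1 by −0.03, −0.06, −0.32 and 0.17, and HBEGF by 0.43, 0.00, 0.32 and −0.10. The brighter EREG probe with p31-43 was lower in 4 of 4 runs, by 0.09 to 0.71, and the dimmer one in 3 of 4. The brighter probe passed in none of the 26 alternatives run. Of the receptors, the brighter ERBB2 probe was below MED-CTL in 4 of 4 runs with PT-G, PT and p31-43, the dimmer one in 4 of 4 with PT-G and PT and in 2 of 4 with p31-43, and EGFR in 4 of 4 with PT and p31-43 and in 3 of 4 with PT-G. The spread between runs was part of the error in the model above. With the run as a block, 6 member probes were called for PT-G (5 higher and the dimmer ERBB2 probe lower, by 0.25 on the log2 scale, limma adjusted p = 0.0324), 5 for PT and 0 for p31-43. The dimmer ERBB2 probe was then also lower with PT-G than with p31-43 (limma adjusted p = 0.0399). The shares of all probes given above are those of the model without a block and cannot be set beside these counts.

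**Figure D3:**
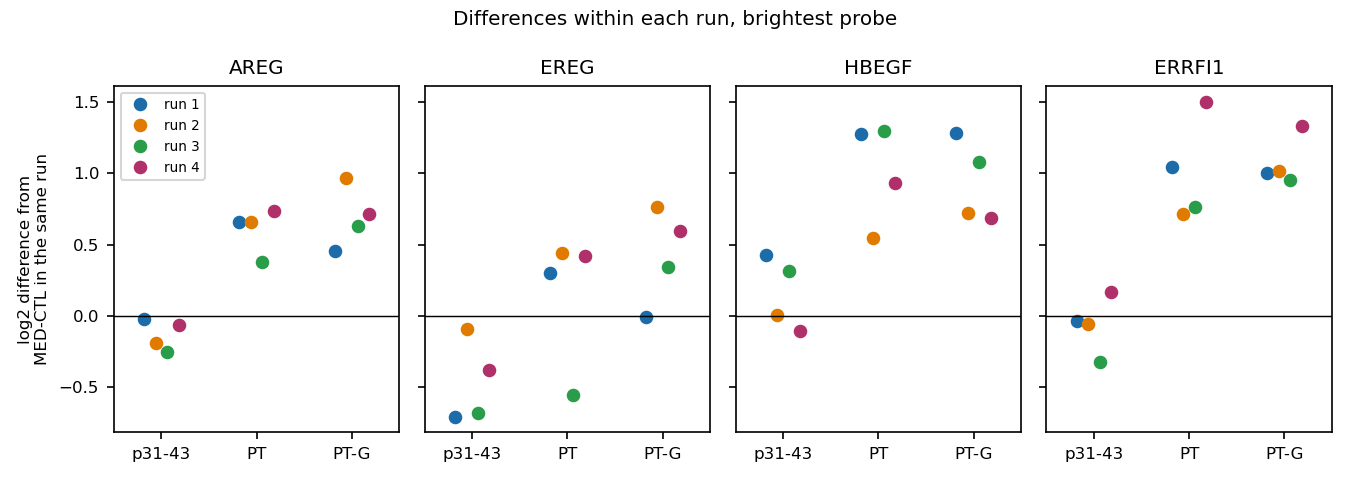
Difference in normalized log2 intensity from the MED-CTL array of the same run (y axis) for the brightest probes of AREG, EREG, HBEGF and ERRFI1 with p31-43, PT and PT-G (x axis), 1 point per run. AREG, HBEGF and ERRFI1 are above 0 in 4 of 4 runs with PT and PT-G, and their p31-43 points lie between −0.32 and 0.43.

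Other genes of the pathway were described by lists. The largest list held 31 transcripts known to rise early after EGF, which are also induced by many other stimuli. It was chosen with earlier results of these data known, so its counts beside the shares of all probes are descriptive only. It had 52 probes, of which 17 were called between PT-G and MED-CTL, against 0.944% of all probes (0.593% higher). Between PT and MED-CTL 16 were called, against 0.82% (0.437% higher), and between p31-43 and MED-CTL 0, against 0%. All the called probes of the list were higher. The list's median log2 change over its probes was 0.89 with PT-G, 0.70 with PT and 0.02 with p31-43. Taking each gene by its brightest probe, 17 of 31 genes rose with PT-G, by 0.86 to 2.91 on the log2 scale, and 16 of 31 with PT, by 0.73 to 2.81. The remaining 14 and 15 did not pass. With the replicate number as a block, which paired PT-G with MED-CTL, 27 of the 52 probes passed for PT-G and 0 for p31-43. The share of all probes passing with that block is not given here.

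The MAP kinase phosphatases, which switch off the cascade, were among them. DUSP5 was 1.83 higher with PT-G (limma adjusted p = 0.000334) and 1.65 higher with PT (0.000738) on the log2 scale. DUSP6, a cytoplasmic phosphatase, was 1.59 and 1.38 higher (limma adjusted p = 0.00545 and 0.0143), and DUSP4 0.86 and 0.73 higher (0.00534 and 0.0155). DUSP1 rose by 1.18 with PT-G (limma adjusted p = 0.0205), while its difference of 0.97 with PT was just short of the threshold (0.0649). The Sprouty proteins restrain Ras activation by receptor tyrosine kinases. SPRY4 was 1.56 higher with PT-G and 1.68 with PT, and SPRY2 0.91 and 0.88 higher, all with a limma adjusted p under 0.05.

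Of the transcription factors, EGR3 showed the largest rise, by 2.91 with PT-G (SE 0.34, limma adjusted p = 0.00136) and 2.59 with PT (adjusted p = 0.00335). The EGR3 probe stood above background on 15 arrays. IER3, a survival factor induced by growth factors, rose by 2.89 and 2.81 (SE 0.24, limma adjusted p = 7.43e-05 and 8.98e-05). The AP-1 subunits FOSL1 and JUNB rose by 1.77 and 1.78 with PT-G and by 1.73 and 1.55 with PT. MAFF, KLF6, KLF10, ATF3 and the nuclear receptor NR4A1 rose as well, by 1.14 to 1.83 with PT-G and 0.87 to 1.71 with PT. So did ZFP36, which destabilizes AU-rich messages (1.43 and 1.39), and PHLDA1 (1.09 and 0.78). With p31-43 the differences over the 31 genes lay between −0.22 and 0.38 on the log2 scale. Over all 52 probes, 1 had a nominal p under 0.01 with the peptide, a dimmer probe of the transcription factor MYC (A_24_P178011), which was 0.34 lower (SE 0.11, limma adjusted p = 1.00), while the brightest MYC probe differed by −0.08. Among the brightest probes, the smallest nominal p with the peptide was that of CYR61, a matrix-associated growth regulator (0.38 higher, SE 0.17, limma adjusted p = 1.00).

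**Figure D4:**
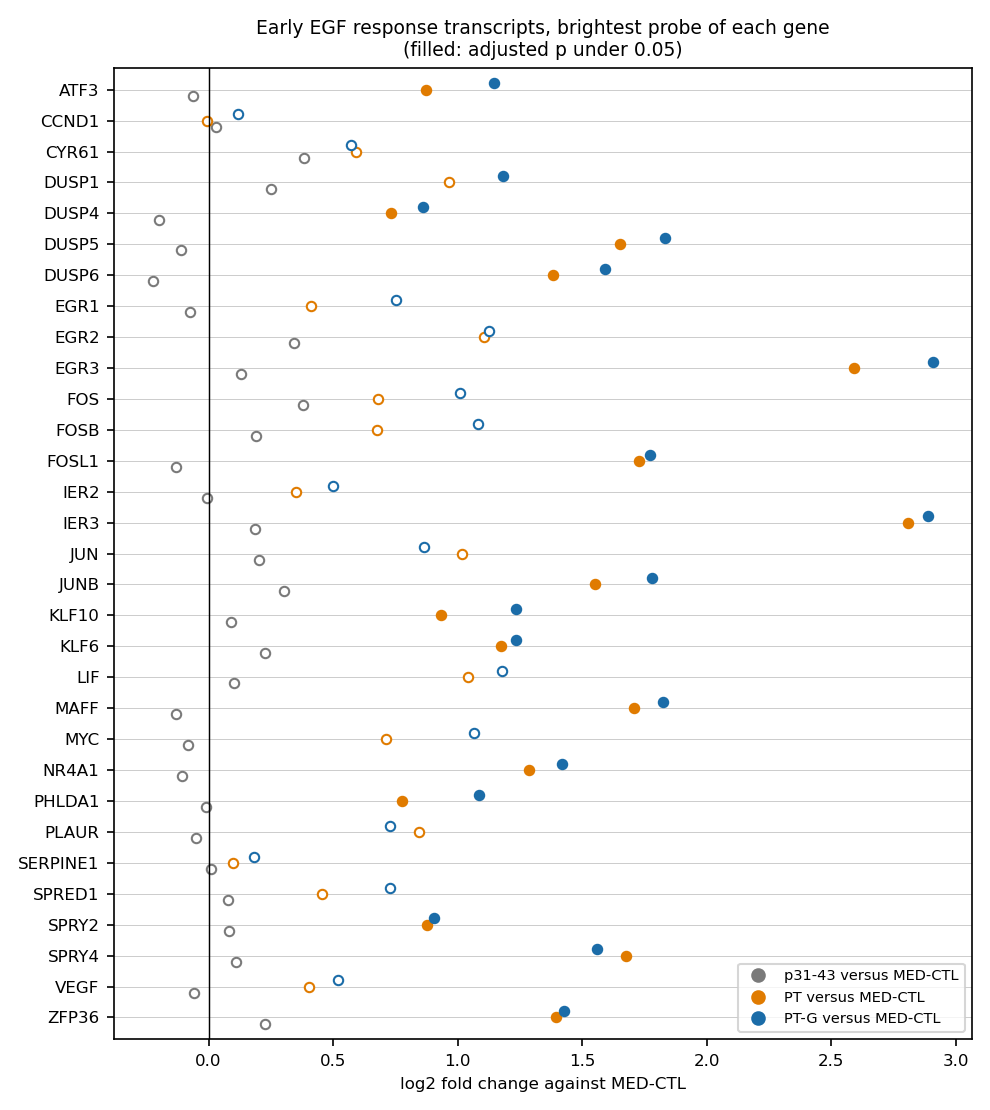
Log2 fold change against MED-CTL (x axis) of the brightest probe of 31 early EGF response transcripts (y axis, alphabetical) with p31-43 (grey), PT (orange) and PT-G (blue). Filled points have an adjusted p under 0.05 (17 for PT-G, 16 for PT, 0 for p31-43), and the p31-43 points lie between −0.22 and 0.38.

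No probe of the other lists was called in any of the 6 comparisons of the model without a block. They were the remaining ligands and ERBB4 (9 probes of 5 genes), the proteases and regulators of ligand shedding (12 probes of 8 genes), the proteins of receptor inhibition and turnover (24 probes of 14 genes) and the adaptors and kinases of the cascade (33 probes of 20 genes). At a nominal p under 0.01 against MED-CTL, 2 probes of the turnover list were higher with PT-G and 2 with PT, where 1.91% and 1.8% of all probes were higher. With the replicate number as a block, 3 of the 78 probes of these lists were called between PT-G and MED-CTL, of CBL, a ubiquitin ligase of the receptors, LRIG3 and HGS, an endosomal sorting protein. Likewise 3 were called between PT-G and p31-43, of CBL, LRIG3 and RHBDF2, a partner of the sheddase ADAM17, and 1, of CBL, between PT and p31-43. All were higher with the digest, and these genes were named after their values were seen. With other blocks the direction was not uniform for PT. With the run as a block, 2 of 3 called probes were higher with PT than in MED-CTL, and 2 of 3 higher than with p31-43. With the slide as a block these were 3 of 4 and 6 of 7. The called probes were all higher with PT-G under both blocks. For these calls, too, the share of all probes called with a block is not given. EGF itself and NRG4 were not well above background on any array. For p31-43 the gene of smallest nominal p was RNF41, an ERBB3 ubiquitin ligase, in the turnover list (0.20 higher on the log2 scale). In the shedding list it was ADAM17, the main sheddase of these ligands (−0.35), and among the remaining ligands NRG2, a neuregulin (0.12 higher). All 3 had an adjusted p of 1.00 in limma.

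The genes whose pattern over the 16 arrays was most like that of the responding members, after centring each run, were found among 12449 named genes above background on all arrays. For ERRFI1 they were TRIB1, a pseudokinase (r = 0.993), the nuclear receptor NR4A3 (0.991) and SERTAD1 (0.989). For HBEGF they were ZFP36 (0.987), the vasoactive peptide EDN1 (0.981) and SPRY4 (0.976). For AREG they were the prostaglandin synthase PTGS2 (0.979), PLEKHO1 (0.976) and TMEM22 (0.971). These are descriptions over arrays that share their conditions. TRIB1 differed from MED-CTL by 1.30 with PT-G, 1.14 with PT and −0.07 with p31-43 on the log2 scale. Because these genes were picked for their likeness to the members on the same arrays, such differences give no separate support. EREG, called against p31-43 only with a block, was most like NDFIP2 (0.972), CFTR (0.969) and BTN2A1 (0.965).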

How the data were processed

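RNA of 16 Caco-2 cultures was hybridised by the authors to 1-colour Agilent arrays, 4 per condition, and read with Agilent Feature Extraction 9.5.3.1. The deposited scanner files give the median spot intensity and local background, and the deposited log2 table was found to hold the same intensities after quantile normalization (largest difference 5e-09). Here the median intensity of the 43376 spots that are not controls was log2 transformed and quantile normalized without background correction, as in the authors' methods. Spots marked as outliers (0.256%) were left out, spots of a probe were averaged, and probes with at least 3 unmarked arrays per group were kept (40982 of 41000). The 4 groups were fitted in 1 model with limma 3.58.1 in R 4.3.3, without a block, and p-values were adjusted by Benjamini-Hochberg over all probes of each of 6 comparisons. Calls used an adjusted p under 0.05. The study's nominal p under 0.01 gave a second count.

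Genes were named by the array's annotation, and where a gene had several probes the brightest led. All member probes are reported, and the pathway genes named are those called by their brightest probe or of smallest p with p31-43. Some genes that these rules name are not reported here. Members and lists were chosen with earlier results of these data known. The precision was limited by the 4 arrays per group. Replicates came from independent experiments. Replicate numbers paired the arrays where every pair of same-numbered arrays correlated above 0.1 in its deviations from the group means: PT-G with MED-CTL (0.395 to 0.858), p31-43 with MED-CTL (0.263 to 0.709), PT-G with p31-43 (0.574 to 0.837) and PT with p31-43 (0.129 to 0.603), but not PT with MED-CTL or PT-G with PT. With arrays paired by run instead, the correlations with MED-CTL were 0.624 to 0.858 for PT-G, 0.535 to 0.709 for p31-43 and −0.02 to 0.618 for PT. On simulated data, 57, 136 and 189 of 200 probes changed by 0.5, 1 and 2 on the log2 scale were recovered. Alternatives were other signals, background corrections, scalings and filters, the deposited table, replicate, run or slide as a block, fits of only 2 groups, and leaving out each array. Shares over all probes are given for the model without a block only.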

Additional observations from a re-analysis of the deposited data

Results flagged for a closer look

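In 2 of the 64 groups of 4 arrays tested over the 16 member probes, 1 array stood apart from the other 3 by Dixon's criterion, which chance meets in about 1 in 20 groups. For the dimmer ERBB2 probe (A_24_P284420), PT-G replicate 4 was at 6.55 on the log2 scale and the other PT-G arrays at 7.10 to 7.20. For TGFA (A_23_P377291), MED-CTL replicate 3 was at 6.02 and the other MED-CTL arrays at 5.78 to 5.81, all of them not well above background.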

How the results depend on the processing

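For p31-43 against MED-CTL and for PT-G against PT, 0 member probes and 0 pathway list probes were called under each of the 26 alternatives. With the replicate number as a block, 5 member probes were called for PT-G against MED-CTL, 5 for PT against MED-CTL and 5 for PT against p31-43 (3, 2 and 2 without), and 30, 27 and 32 list probes for PT-G against MED-CTL, PT against MED-CTL and PT-G against p31-43 (17, 16 and 17 without). With the run as a block, 6, 5, 7 and 5 member probes and 32, 31, 36 and 28 list probes were called for PT-G and PT against MED-CTL and PT-G and PT against p31-43. With the slide as a block, 6 and 5 member probes were called for PT-G and PT against MED-CTL and 6 for PT against p31-43, with 42, 35, 39 and 38 list probes over the 4 comparisons. Whether calls over all probes rose to the same extent with a block is not shown by these counts. Fits of only the 2 groups compared gave 1 member probe for PT-G and 0 for PT against MED-CTL and 2 for PT-G against p31-43, with 5, 3 and 10 list probes. In those fits the brighter HBEGF probe had an adjusted p of 0.110 with PT-G and 0.0726 with PT in limma. For PT against p31-43, 11 list probes were called with the processed signal and 11 with median scaling (17 in the model reported).

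Leaving out 1 array gave 3 to 4 member probes for PT-G against MED-CTL, 2 to 3 for PT against MED-CTL, 3 to 4 for PT-G against p31-43 and 2 to 3 for PT against p31-43. List probes ranged from 14 to 18, from 9 (without MED-CTL replicate 2) to 18, from 10 (without p31-43 replicate 4; 11 without PT-G replicate 2) to 18 and from 9 to 17. The 9 arose without p31-43 replicate 3 or 4 or PT replicate 1, 2 or 4, beside 10 without p31-43 replicate 1 and 11 without PT replicate 3. Signs turned only for small differences among the 7 ligand and ERRFI1 probes followed. The log2 difference of the brighter ERRFI1 probe with p31-43 was 0.042 under median scaling and lay between −0.168 and 0.014 with arrays left out, that of the dimmer one between −0.094 and 0.096, and that of the brighter EREG probe with PT between −0.096 (without MED-CTL replicate 1) and 0.472. The cause of these shifts was not tested. TGFA and BTC were limited by signal over background.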
